A study of Homo sapiens with 15 samples.

Results

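Integrins are receptors that anchor cells to the extracellular matrix, each built of an alpha chain and a beta chain that meet in the membrane. The chains decide the ligand: ITGA2 with ITGB1 binds collagen, ITGA3 with ITGB1 and ITGA6 with ITGB1 or ITGB4 bind laminin, ITGA5 with ITGB1 binds fibronectin, and ITGAV with ITGB1, ITGB3, ITGB5 or ITGB8 binds matrix proteins that carry an RGD motif, among them the latent form of TGF-beta. In breast cancer cells they are known for their parts in adhesion, migration and survival. Values are given here for 10 integrin genes, 5 alpha chains and 5 beta chains, picked by name from the 23368 genes of the count table. They were chosen with earlier results of these data known.

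The counts come from RNA-seq of 3 clones, each started from a single sorted breast cancer cell of a line selected for brain metastasis, with a retroviral vector from which doxycycline switches on the cDNA of the RNA-binding protein RBM47. WT6 and WT10 carry wild type RBM47, and MUT3 carries RBM47-I281fs, a frameshift mutant that ends early. Doxycycline was given at 0, 1, 2.5, 5 or 25 ng/ml to cells of each clone, and every clone and dose has 1 library, 15 in all. The labels give MDA231 as the cell line of all 3 clones, whereas the study's methods derive WT6 from CN34-BrM2 and the other two from a brain metastatic derivative of MDA231. WT6 therefore differs from the others in parental line by the methods, and clone, parental line and transgene cannot be told apart. There were no replicates, so a p-value below measures the scatter of the libraries around a straight line on the dose.

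The libraries held between 14955172 and 44771871 reads on genes, with WT10 at 5 ng/ml the deepest. Reads that fell on no counted gene feature made up 56.5% to 59.6% of the reads on genes, on no feature or ambiguous. The normalized RBM47 count went with doxycycline from 258 to 10425 in WT6, from 168 to 19877 in WT10 and from 73.8 to 22084 in MUT3, and the WT6 library at 5 ng/ml held less of it (3966) than that at 2.5 ng/ml (8094). VIM, a mesenchymal filament gene, ranged from 50755 to 104639 normalized counts, CDH1, the epithelial cadherin, from 0 to 19.9, ESR1, the estrogen receptor, from 0 to 11.97, and the leukocyte gene CD3E had 0 reads in all 15 libraries. PGR, the progesterone receptor, ranged from 0 to 23.8 and the leukocyte gene PTPRC from 0 to 6.18. Other markers of these kinds were higher: EPCAM (epithelial) from 136 to 456, ERBB2 (HER2) from 1018 to 1584, and CD68 (leukocyte) from 2090 to 5307. The WT6 libraries at 5 and 25 ng/ml stood apart: against untreated WT6, and with the tested genes split by transcript length into 5 groups of like size, the median log2 change was 0.57 and 0.56 in the shortest group (61 to 1970 bases) and −0.40 and −0.46 in the longest (from 6004 bases). The integrin genes all have long transcripts, between 4250 and 8974 bases, so the falls of WT6 below are also given without these libraries and with trends with length and GC content removed.

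Of the 10 genes, 4 fell with the dose in both clones with wild type RBM47 (below), and the promoters of 3 of these are shown as the sequence before the most upstream start that RefSeq lists (GRCh38.p14), 250 bases, 5′ to 3′ on the strand of the gene. ITGA2 is on the plus strand, chr5:52989102-52989351, ITGA6 on the plus strand, chr2:172427086-172427335, and ITGB1 on the minus strand, chr10:32958231-32958480. Capitals mark every match to the GC box GGGCGG or the TATA box TATAAA on either strand.
ITGA2: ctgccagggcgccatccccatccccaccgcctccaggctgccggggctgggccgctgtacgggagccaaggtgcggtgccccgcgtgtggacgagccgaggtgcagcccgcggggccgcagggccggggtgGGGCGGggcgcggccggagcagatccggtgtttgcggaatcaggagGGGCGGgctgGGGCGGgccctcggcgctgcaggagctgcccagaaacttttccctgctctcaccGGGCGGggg
ITGA6: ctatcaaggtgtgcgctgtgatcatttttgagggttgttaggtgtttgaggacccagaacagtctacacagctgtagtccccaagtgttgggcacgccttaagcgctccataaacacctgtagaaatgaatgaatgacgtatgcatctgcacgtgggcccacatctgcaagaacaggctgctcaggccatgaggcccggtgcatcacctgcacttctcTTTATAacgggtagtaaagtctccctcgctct
ITGB1: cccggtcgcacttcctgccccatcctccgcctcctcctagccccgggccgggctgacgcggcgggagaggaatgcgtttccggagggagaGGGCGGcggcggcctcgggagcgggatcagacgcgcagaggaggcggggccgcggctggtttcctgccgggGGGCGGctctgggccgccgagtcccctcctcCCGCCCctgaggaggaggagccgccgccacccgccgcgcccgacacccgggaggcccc
ITGA2 held 4 GC boxes, ITGB1 held 3, and the window of ITGA6 held 0 GC boxes and 1 TATA box on the opposite strand. The window of a second listed start of ITGA6 held 3 GC boxes, and that of ITGB1 held 0 GC boxes and 3 TATA boxes. Among the genes that did not fall, ITGA5 held 1 GC box, ITGAV 0, and ITGB5 and ITGB8 2 each in the window of their most upstream start. A GC box was in 42.6% and a TATA box in 10.7% of all 35116 such windows in the table, and in 7 and 2 of the 12 windows of the 7 integrin genes found there. Promoters of ITGA3, ITGB3 and ITGB4 are not shown here.

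Levels were compared between genes as normalized counts per kb of merged exons. The most abundant chain was ITGA3 in WT6 (median over the 5 doses 2557 per kb) and in WT10 (2080), and ITGA6 in MUT3 (1876). In WT6 the order went on with ITGA5 (1136), ITGB1 (562), ITGA6 (464), ITGB5 (295), ITGB4 (204), ITGA2 (157), ITGAV (72.7), ITGB3 (11.1) and ITGB8 (0.056). The ranges over the doses overlapped between the neighbours ITGB1 and ITGA6, ITGA6 and ITGB5, ITGB4 and ITGA2, and ITGA2 and ITGAV, and the remaining neighbours stood apart.

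In WT10 ITGA3 was followed by ITGA6 (1707), ITGB1 (818), ITGA2 (433), ITGA5 (332), ITGB5 (296), ITGAV (86.6), ITGB4 (23.2), ITGB3 (15.7) and ITGB8 (0.55). Ranges overlapped between ITGA3 and ITGA6, between each neighbouring pair from ITGB1 to ITGB5, and between ITGB4 and ITGB3. In MUT3 ITGA6 was followed by ITGA3 (1464), ITGB1 (701), ITGA2 (415), ITGA5 (413), ITGB5 (280), ITGAV (77.4), ITGB4 (42.5), ITGB3 (8.11) and ITGB8 (2.18), and only ITGA2 and ITGA5 overlapped as neighbours. Dividing by the length of the longest protein-coding transcript in place of merged exons put ITGA3 first in MUT3 as well (median 2934 per kb) and changed the rank of 2 genes in WT6, 4 in WT10 and 4 in MUT3.

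**Figure D1:**
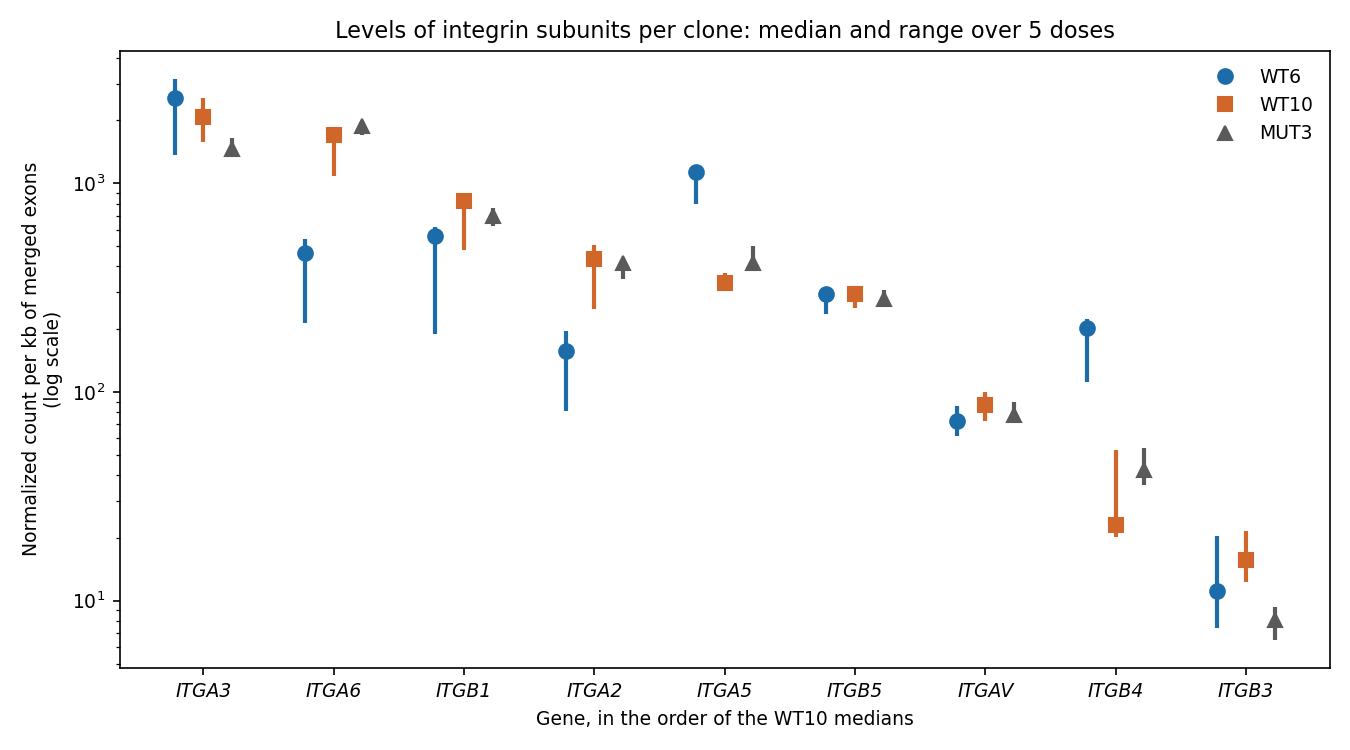
Normalized count per kb of merged exons (log scale) of 9 integrin genes in WT6, WT10 and MUT3. Markers are medians and lines the range over 5 doses, 1 library each. ITGA5 and ITGB4 sat higher and ITGA6 and ITGA2 lower in WT6 than in the other clones. ITGB8, at 0 reads in 2 WT6 libraries, is not drawn.

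The clones differed in the levels of their chains. Levels at a dose of 0 were compared as fitted by limma, which tested 9 of the 10 genes, since ITGB8 did not reach a mean normalized count of 10 in each clone. WT6 against WT10 gave 3 genes higher, where 30.8% of the 12644 genes tested were higher, and 2 lower, where 28.8% were. ITGB4, the beta chain of hemidesmosomes, was higher by 3.38 ± 0.34 log2 units (SE, adjusted p = 6.3e-07), with untreated normalized counts of 1499 in WT6, 153 in WT10 and 241 in MUT3. ITGA5, the alpha chain of the fibronectin receptor, was higher in WT6 by 1.63 ± 0.15 (SE, adjusted p = 2.0e-07), with untreated counts of 8719, 2749 and 2814 in WT6, WT10 and MUT3. ITGA3 was higher by 0.37 ± 0.12 (SE, adjusted p = 0.019), a call that was lost without the WT10 libraries at 25 ng/ml (adjusted p = 0.063), at 0 ng/ml (adjusted p = 0.069) or without WT6 at 1 ng/ml (adjusted p = 0.068).

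ITGA6 was lower in WT6 than in WT10, with a fitted difference of −1.70 ± 0.12 (SE, adjusted p = 2.0e-08) and untreated counts of 3608 in WT6, 11398 in WT10 and 11347 in MUT3. ITGA2 differed by −1.34 ± 0.18 (SE, adjusted p = 9.2e-06), with untreated counts of 1544, 3350 and 2751. The 5 WT6 libraries stayed below all 10 libraries of the other clones for both genes, and above them for ITGA5 and ITGB4. ITGAV, ITGB1, ITGB3 and ITGB5 did not pass, with differences between −0.43 and −0.02.

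WT6 against MUT3 gave the same directions for those 5 genes: ITGA3 (1.21 ± 0.12), ITGA5 (1.56 ± 0.15) and ITGB4 (2.43 ± 0.31) were higher, where 31.5% of all genes were, and ITGA2 (−0.86 ± 0.18) and ITGA6 (−1.60 ± 0.12, all log2 units with SE) were lower, where 30.2% were. These 5 calls and those against WT10 share the WT6 libraries. The ratio of ITGB4 to ITGA6, which pair in hemidesmosomes, was 0.411 per kb in untreated WT6, 0.0132 in WT10 and 0.0210 in MUT3. At 25 ng/ml it was 0.953, 0.0486 and 0.0274.

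The methods derive WT10 and MUT3 from the same line. WT10 was higher for 3 genes, where 14.3% of all genes were higher, and lower for 0 of the 9, where 13.9% were. ITGA3 was higher in WT10 by 0.84 ± 0.12 log2 units (adjusted p = 0.00016), ITGB1, the common partner of the alpha chains here, by 0.58 ± 0.20 (adjusted p = 0.040), and ITGA2 by 0.49 ± 0.17 (SE, adjusted p = 0.042). Untreated counts were 25204 in WT10 and 14060 in MUT3 for ITGA3, 11915 and 9053 for ITGB1, and 3350 and 2751 for ITGA2. The calls of ITGB1 and ITGA2 were lost without precision weights (adjusted p = 0.067 and 0.080) and without WT10 at 1, 2.5, 5 or 25 ng/ml or MUT3 at 0, 2.5 or 25 ng/ml, each leaving ITGA3 alone. That of ITGB1 was also lost without MUT3 at 1 ng/ml, and that of ITGA2 without MUT3 at 5 ng/ml or WT6 at 0 ng/ml. Without WT6 at 5 ng/ml 6 genes passed, with ITGB3 and ITGB5 added as higher in WT10 and ITGB4 as lower. Of all genes, 19.6% were higher and 21.2% lower under that setting.

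ITGB8, which binds latent TGF-beta with ITGAV, was the least abundant of the 10 per kilobase, with at most 2 reads in a WT6 library. It had 0, 1, 1, 0 and 2 reads in WT6 from 0 to 25 ng/ml, 5, 13, 7, 21 and 14 reads in WT10, and 27, 26, 38, 36 and 28 in MUT3. Every MUT3 library held more reads on it than any library of the other clones. Summed over the doses, its level in MUT3 was 3.50 times that in WT10 (95% interval 2.58 to 4.80) and 37.4 times that in WT6 (95% interval 14.3 to 139), which are exact binomial intervals that cover counting error only. In a fit with no filter on low values it was lower than in MUT3 by a log2 difference of −2.21 ± 0.39 in WT10 (adjusted p = 0.00056) and −4.96 ± 0.48 in WT6 (SE, adjusted p = 2.1e-07), and its dose slopes did not pass in any clone (adjusted p = 0.16, 0.26 and 1.0 in WT6, WT10 and MUT3).

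**Figure D2:**
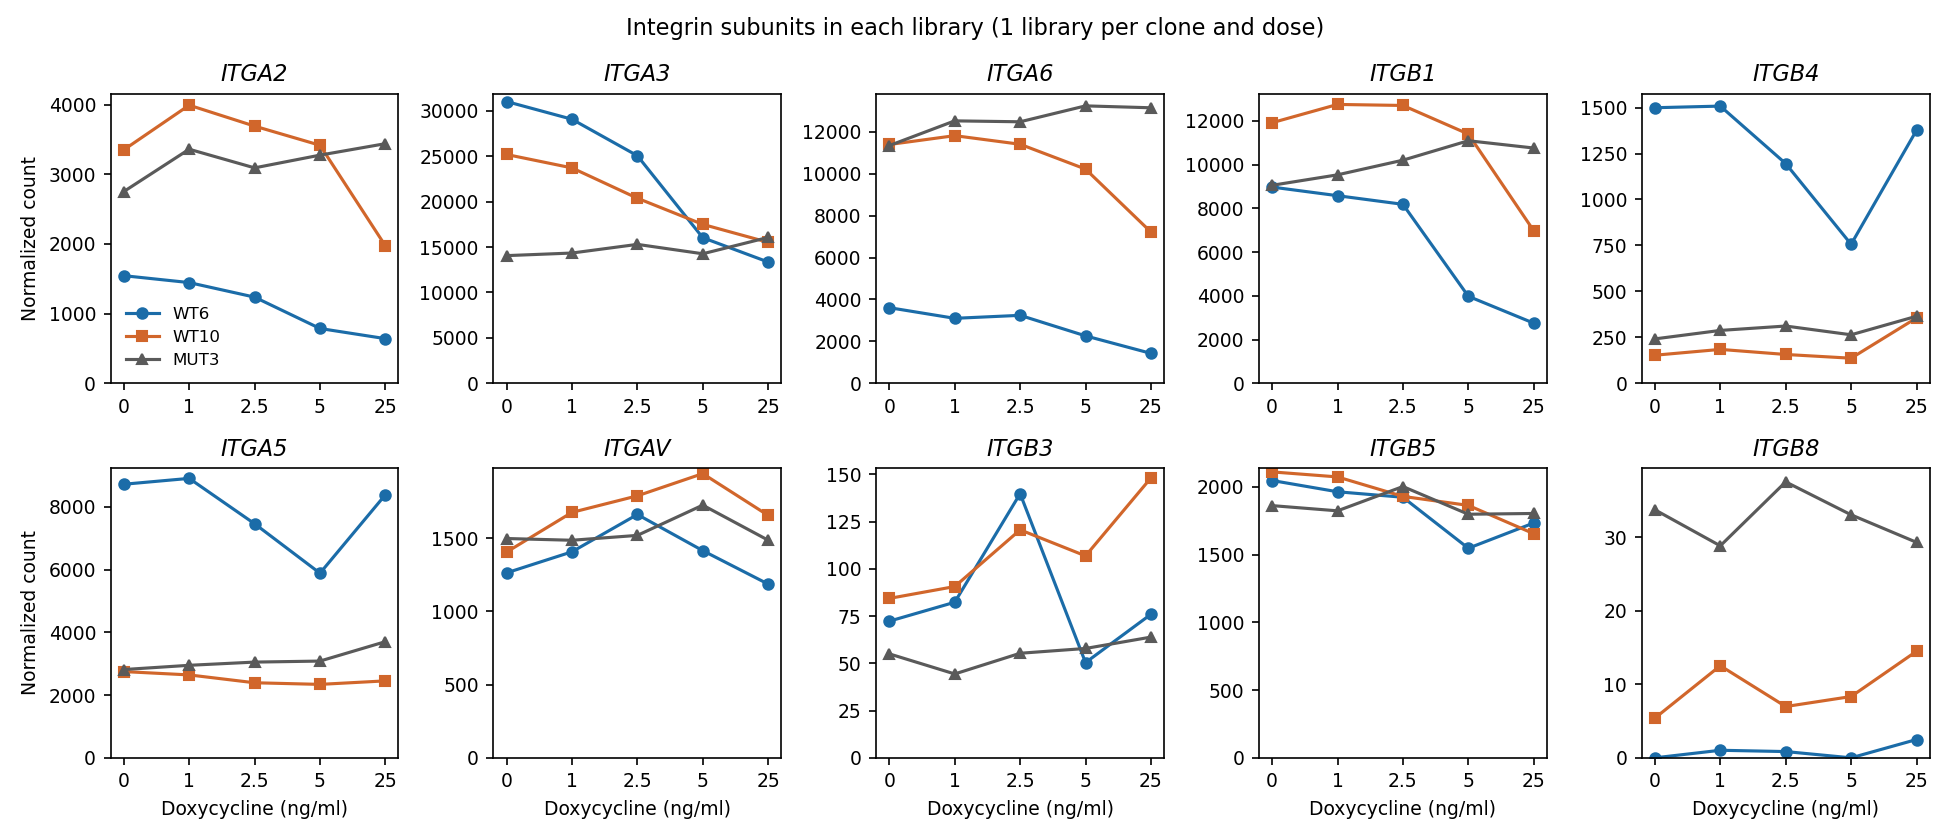
Normalized count (linear axis from 0) of the 10 integrin genes against doxycycline concentration (ng/ml, evenly spaced) in WT6, WT10 and MUT3, with 1 library per point and no error bars since there are no replicates. ITGA2, ITGA3, ITGA6 and ITGB1 ended lower at 25 ng/ml than untreated in WT6 and WT10, and higher in MUT3.

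For each clone, the change with the dose was tested as a slope, in log2 units of normalized count + 1 per unit of log2(dose + 1), over all 12644 genes. With an adjusted p under 0.05, 4 of the 9 genes tested fell in WT6, where 28.3% of all genes fell, and 0 rose, where 29.2% rose. In WT10 the count was again 4 falling, where 9.83% of all genes fell, and 0 rising, where 10.2% rose. They were the same 4 genes, ITGA2, ITGA3, ITGA6 and ITGB1, the 3 collagen and laminin alpha chains and their common beta chain, and 7.34% of all genes fell in both clones. The median slope of the 9 genes in WT6 and WT10 was −0.07 and −0.08, beside 0.01 and 0.00 over all genes. In MUT3 0 of the 9 passed, where the percentage of all genes was 0 (limma), and 0 had an unadjusted p under 0.05. edgeR and DESeq2 also called 0 of the 9 in MUT3, where they called 0.00791% and 0.0633% of all genes. Fitting MUT3 alone (limma) called ITGA5 and ITGB1, with slopes of 0.08 and 0.06, where 0.91% of all genes rose. In that fit 6 of the 9 had an unadjusted p under 0.05, as did 1346 of the 12644 genes. Less RNA per cell and fewer cells with the RNA cannot be told apart in these bulk libraries.

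ITGA3, the alpha chain of a laminin receptor, was the most regular. Its normalized counts from 0 to 25 ng/ml were 31038, 29086, 25068, 16037 and 13355 in WT6, 25204, 23725, 20385, 17503 and 15525 in WT10, and 14060, 14346, 15300, 14265 and 16067 in MUT3. It fell at each step of the dose in both wild type clones, so that at 25 ng/ml all 3 clones lay within 13355 to 16067. The slope was −0.29 ± 0.03 in WT6 (SE, adjusted p = 1.7e-05), −0.16 ± 0.03 in WT10 (adjusted p = 0.0049) and 0.04 ± 0.03 in MUT3 (adjusted p = 1.0). The count at 25 ng/ml was 0.430 times untreated in WT6 and 0.616 times in WT10.

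ITGB1 showed the steepest slope of the 9 in WT6. Its counts were 8971, 8578, 8183, 3977 and 2748 in WT6, 11915, 12751, 12704, 11397 and 6973 in WT10, and 9053, 9531, 10201, 11091 and 10758 in MUT3. In WT6 it dropped between 2.5 and 5 ng/ml, and in WT10 only the library at 25 ng/ml lay well below the others. The slope was −0.41 ± 0.05 in WT6 (SE, adjusted p = 3.5e-05), −0.18 ± 0.05 in WT10 (adjusted p = 0.032) and 0.06 ± 0.05 in MUT3. The call in WT10 was lost with edgeR (adjusted p = 0.051) and kept with DESeq2. At 25 ng/ml the count was 0.306 times untreated in WT6 and 0.585 times in WT10.

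ITGA2, the alpha chain of a collagen receptor, had counts of 1544, 1445, 1236, 786 and 640 in WT6, 3350, 3992, 3691, 3416 and 1973 in WT10, and 2751, 3360, 3092, 3275 and 3439 in MUT3. It fell at each step in WT6, while in WT10 the libraries at 1, 2.5 and 5 ng/ml were above the untreated one and only that at 25 ng/ml was below. The slope was −0.30 ± 0.05 in WT6 (SE, adjusted p = 0.00030), −0.18 ± 0.05 in WT10 (adjusted p = 0.014) and 0.05 ± 0.05 in MUT3.

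ITGA6, which pairs with ITGB1 or ITGB4 as a laminin receptor, had counts of 3608, 3099, 3242, 2262 and 1426 in WT6, 11398, 11820, 11409, 10224 and 7218 in WT10, and 11347, 12527, 12483, 13242 and 13151 in MUT3. In WT10 the first 3 libraries were close and the drop came at 5 and 25 ng/ml. The slope was −0.29 ± 0.03 in WT6 (SE, adjusted p = 1.8e-05), −0.15 ± 0.03 in WT10 (adjusted p = 0.0071) and 0.04 ± 0.04 in MUT3.

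**Figure D3:**
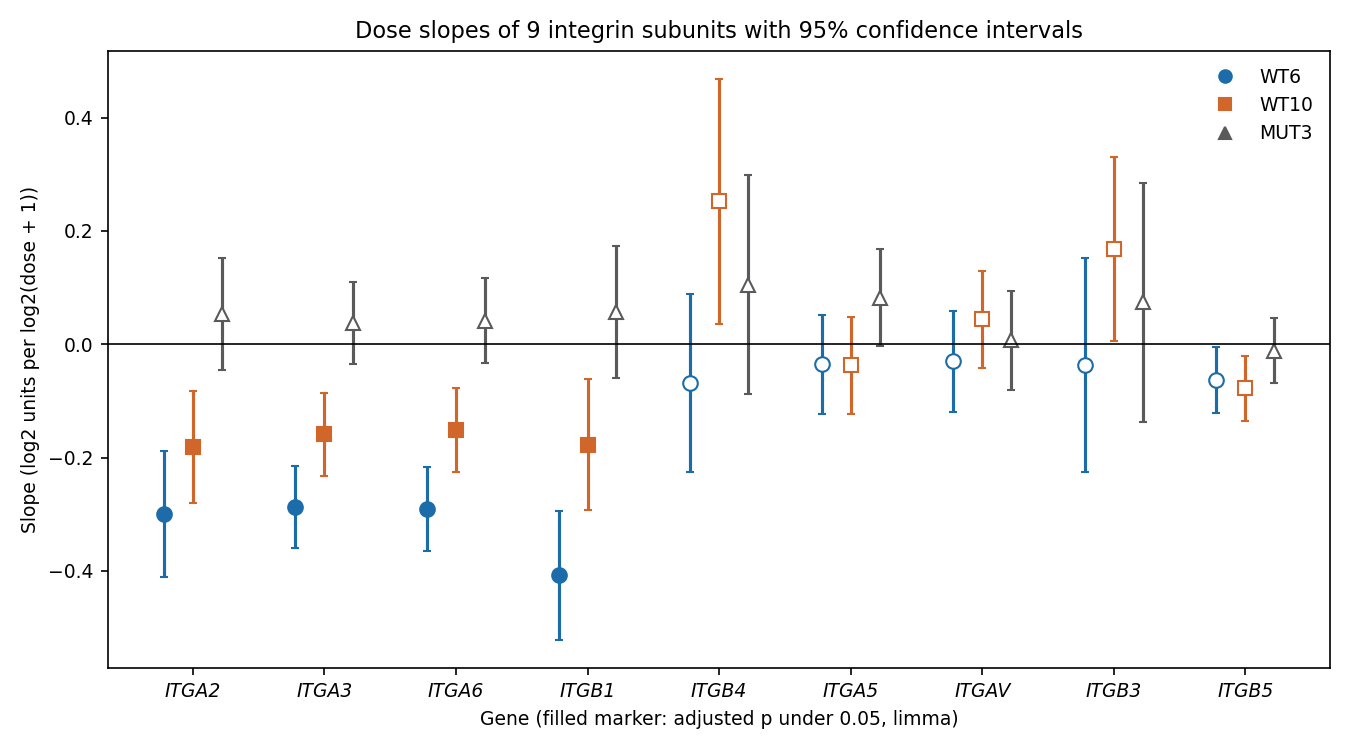
Dose slopes (log2 units per unit of log2(dose + 1)) of 9 integrin genes in WT6, WT10 and MUT3 from limma, with 95% confidence intervals and filled markers for an adjusted p under 0.05. ITGA2, ITGA3, ITGA6 and ITGB1 lie between −0.41 and −0.15 in both wild type clones and between 0.04 and 0.06 in MUT3.

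The other 5 genes tested did not pass in any clone with limma or edgeR. ITGA5 had counts of 8719, 8906, 7461, 5884 and 8385 in WT6, 2749, 2643, 2393, 2341 and 2453 in WT10, and 2814, 2949, 3051, 3084 and 3702 in MUT3, and its lowest WT6 library was that at 5 ng/ml. Its slopes were −0.04 ± 0.04, −0.04 ± 0.04 and 0.08 ± 0.04. Without WT6 at 25 ng/ml its slope in WT6 was −0.22 and passed (adjusted p = 0.0062). ITGAV, the shared chain of the RGD receptors, had slopes of −0.03, 0.04 and 0.01 (SE 0.04 each), and its 95% interval in WT6 was −0.12 to 0.06. Its counts stayed between 1186 and 1940 in all 15 libraries.

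ITGB5 had counts of 2046, 1963, 1923, 1546 and 1733 in WT6 and 2110, 2073, 1929, 1862 and 1654 in WT10. Its count was lower at each step of the dose in WT10, but it missed the threshold there, at −0.08 ± 0.03 (SE, adjusted p = 0.056), and in WT6, at −0.06 ± 0.03 (adjusted p = 0.060). DESeq2 called it in WT10 (adjusted p = 0.045), and without WT6 at 25 ng/ml its slope in WT6 was −0.14 and passed (adjusted p = 0.024). Its MUT3 libraries ranged from 1797 to 2002, with a slope of −0.01 ± 0.03.

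The remaining beta chains had slopes above 0 in WT10 that did not pass. ITGB4 had counts of 153, 184, 157, 136 and 355 in WT10, a value at 25 ng/ml 2.33 times the untreated one (95% counting interval 1.91 to 2.86), and of 241, 287, 311, 264 and 365 in MUT3. The slope was 0.25 ± 0.10 in WT10 (SE, adjusted p = 0.094) and 0.11 ± 0.09 in MUT3, and in WT6, where counts were 1499, 1508, 1195, 756 and 1376, it was −0.07 ± 0.07. Without WT6 at 25 ng/ml it was −0.36 in WT6 and passed (adjusted p = 0.014). ITGB3 was low in every library, from 44.4 to 148 normalized counts, with slopes of −0.04 ± 0.09, 0.17 ± 0.08 (adjusted p = 0.13) and 0.07 ± 0.10 in WT6, WT10 and MUT3. With WT10 fitted alone, both passed in WT10 (adjusted p = 0.030 for ITGB4 and 0.018 for ITGB3), and so did ITGB5 (adjusted p = 0.017), where 28.4% of all genes passed in either direction. Without WT10 at 25 ng/ml the slope of ITGB4 was −0.07. With length and GC trends removed (limma), ITGB4 (0.31, adjusted p = 0.0087) and ITGB3 (0.20, adjusted p = 0.027) passed as rising in WT10, where 16.3% of all genes rose. ITGB5 passed there as falling (−0.05, adjusted p = 0.028), where 18.7% fell.

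The calls in WT10 were lost without 1 library. Without WT10 at 25 ng/ml 0 of the 9 genes passed (limma), where 0.0475% of all genes passed in either direction, and 2 of the 9 had an unadjusted p under 0.05. The slope of ITGA3 was then −0.21, no smaller than with all libraries, while those of ITGA6, ITGB1 and ITGA2 were −0.06, −0.02 and 0.0030. In that library the median log2 change against untreated was 0.06 in the group of shortest genes and −0.08 in that of the longest. Of its reads, 58.7% fell on no counted gene feature, against 56.6% in untreated WT10 and 58.8% in untreated MUT3. Their part in the falls was not tested beyond the removal of length and GC trends, after which the WT10 slopes were −0.12 for ITGA3, −0.15 for ITGA6, −0.17 for ITGA2 and −0.19 for ITGB1, all past the threshold.

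The calls in WT6 were lost without the pair of libraries that stood apart. Without those at 5 and 25 ng/ml 0 of the 9 genes passed (limma), where 0.411% of all genes fell, 4 of the 9 had an unadjusted p under 0.05, and the slopes were −0.17 for ITGA2 and ITGA3, −0.09 for ITGA6 and −0.07 for ITGB1. With WT6 at 25 ng/ml alone left out, 7 passed, all falling, where 17.2% of all genes fell. ITGA2 is in the group of longest genes, where the median slope in WT6 was −0.11 and 54.7% of genes fell, and ITGA3, ITGA6 and ITGB1 are in the group next to it, where the median was −0.06 and 43.4% fell. At 25 ng/ml their log2 changes against untreated WT6 were −1.27, −1.22, −1.34 and −1.71, beside medians of −0.46 and −0.28 for these groups of genes. With length and GC trends removed, the slopes in WT6 were −0.19 for ITGA2, −0.24 for ITGA3, −0.20 for ITGA6 and −0.33 for ITGB1. All 4 passed, where 29.4% of all genes fell. ITGAV turned from −0.03 to 0.08 and passed as rising (adjusted p = 0.0080), where 29.1% of all genes rose.

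**Figure D4:**
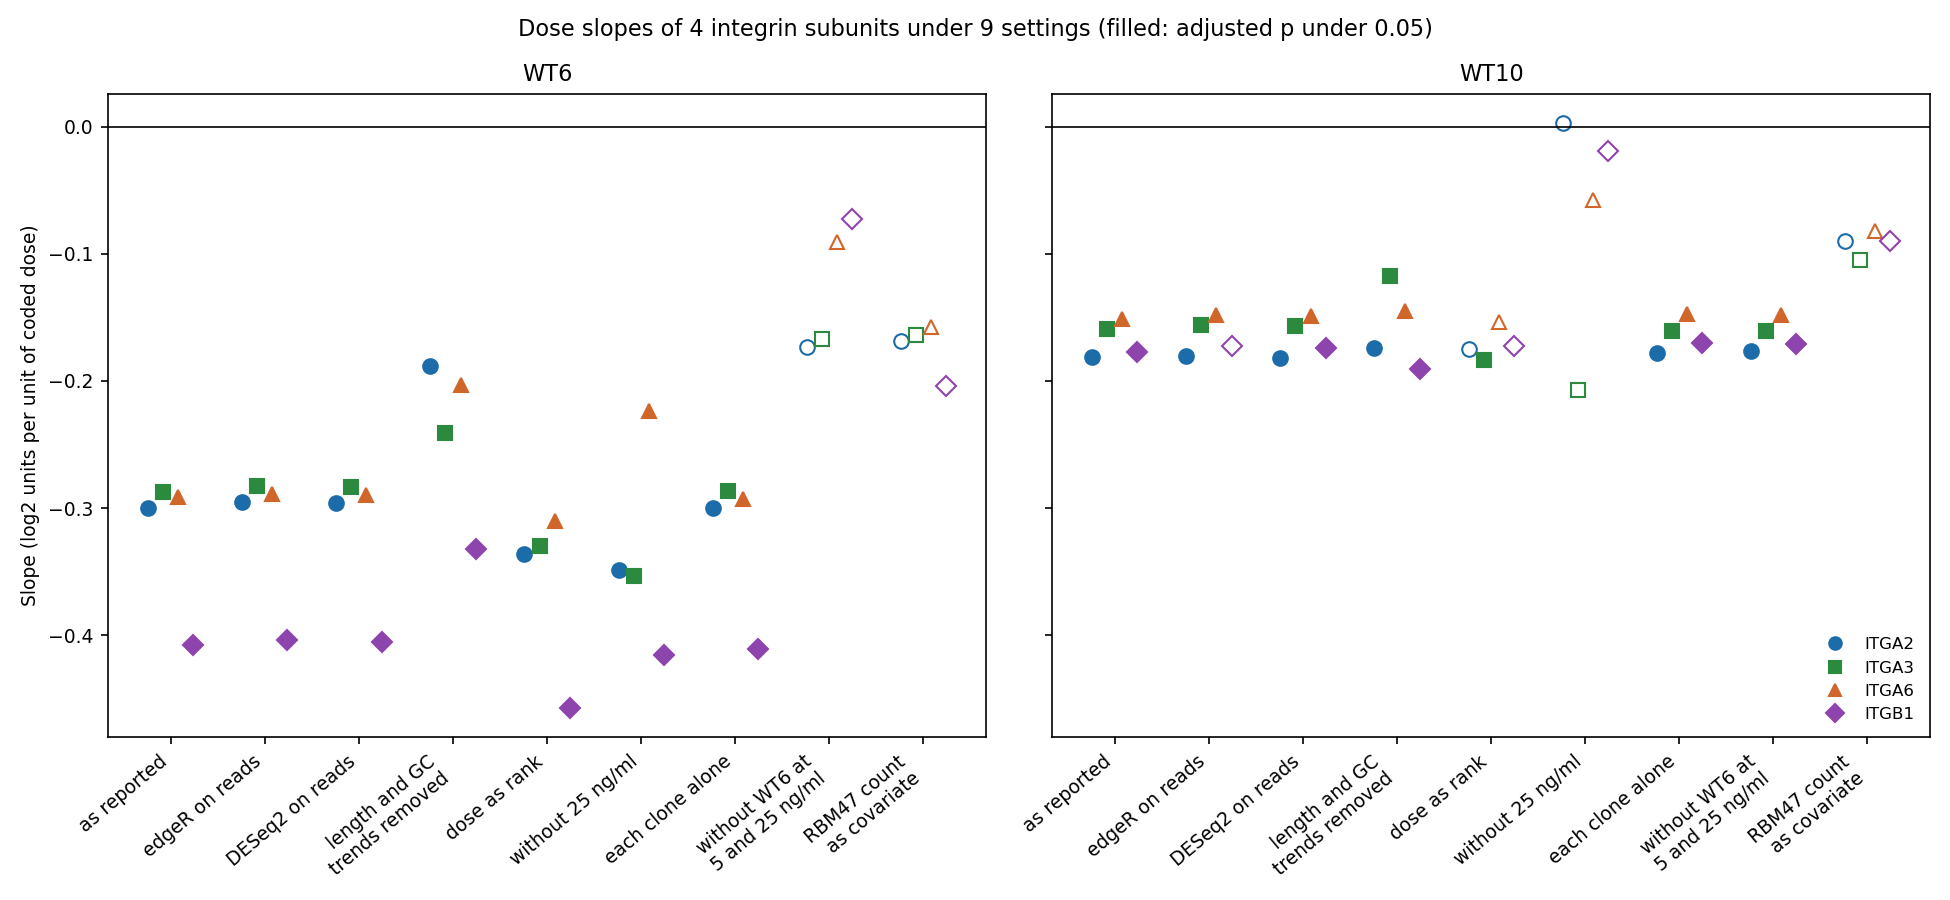
Dose slopes (log2 units per unit of the coded dose) of ITGA2, ITGA3, ITGA6 and ITGB1 in WT6 (left) and WT10 (right) under 9 settings, filled where the adjusted p was under 0.05. Dose as rank and the RBM47 count as covariate have other units on the axis. In WT6 the slopes lie below 0 and passed except without WT6 at 5 and 25 ng/ml and with the RBM47 count as covariate, and in WT10 none passed without 25 ng/ml or with that covariate.

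The wild type and mutant slopes were then compared directly. Against MUT3, the WT10 slope was lower for 3 of the 9 genes, where it was lower for 2.97% of all genes. The differences were −0.23 ± 0.07 for ITGA2 (SE, adjusted p = 0.0495), −0.20 ± 0.05 for ITGA3 (adjusted p = 0.030) and −0.19 ± 0.05 for ITGA6 (adjusted p = 0.035). ITGB1 differed by as much, −0.23 ± 0.08, and missed the threshold (adjusted p = 0.086). DESeq2 called ITGB1 as well (adjusted p = 0.043), and edgeR did not call ITGA2 (adjusted p = 0.070). The count was 0 without WT10 at 1 or 25 ng/ml or MUT3 at 0, 1 or 25 ng/ml, 1 without MUT3 at 2.5 or 5 ng/ml, and 0 without precision weights. Without WT10 or without MUT3 at 25 ng/ml, 0 of all genes were lower with limma, 1628 and 1130 having an unadjusted p under 0.05 in either direction.

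The mean slope of WT6 and WT10 was below that of MUT3 for all 4 falling genes, where 14.6% of all genes were lower. The differences were −0.29 ± 0.06 for ITGA2, −0.26 ± 0.04 for ITGA3, −0.26 ± 0.04 for ITGA6 and −0.35 ± 0.07 for ITGB1 (SE, adjusted p between 0.0012 and 0.0035). Both comparisons use the same MUT3 libraries, and without MUT3 at 25 ng/ml the adjusted p of the 4 genes ran from 0.11 to 0.15, with differences between −0.41 and −0.24, and 3 of all 12644 genes passed. The other 5 genes did not pass, with differences from −0.12 for ITGA5 to 0.00 for ITGAV. With dose as a block shared by the clones, ITGA5 passed as well (adjusted p = 0.038).

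WT6 and WT10 were then compared by their slopes. For 0 of the 9 genes did the slopes differ past the threshold with limma, where they differed for 14.4% of all genes, although 4 had an unadjusted p under 0.05. The largest difference was that of ITGB4, −0.32 ± 0.13 (SE, adjusted p = 0.089), and ITGB1 followed with −0.23 ± 0.08 (adjusted p = 0.054). edgeR called 0 and DESeq2 called 2, ITGB1 and ITGA6. With dose as a block shared by the clones 4 passed, ITGA3, ITGA6, ITGB1 and ITGB4, all with the lower slope in WT6, where 19.4% of all genes passed. The 95% interval of the difference for ITGA2 was −0.27 to 0.03.

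Among 16 other integrin subunits in the table, 5 were tested and 5 (ITGA8, ITGAD, ITGAL, ITGAX and ITGB6) had at most 3 reads in every library, which is the floor of counting used here. ITGA1, a further collagen-binding chain, fell in both wild type clones, with a slope of −0.32 ± 0.05 in WT6 (SE, adjusted p = 0.00015) and −0.17 ± 0.06 in WT10 (adjusted p = 0.043). ITGA10, also a collagen-binding chain, had slopes of −0.27 ± 0.06 in WT6 (adjusted p = 0.0013) and −0.33 ± 0.10 in WT10 (adjusted p = 0.032). Their slopes in MUT3 were 0.04 and −0.04. ITGAE rose in WT6 (0.14) and ITGB2 in WT10 (0.13), both named after their values were seen.

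The genes that work with integrins were described by lists, whose counts stand beside the shares of all genes that fell (28.3% in WT6 and 9.83% in WT10) or rose (29.2% and 10.2%). Of 21 tested integrin activators and adaptors, most of which link the beta tail to actin or signal from it, 9 fell and 3 rose in WT6, and 4 fell and 0 rose in WT10, with median slopes of −0.02 and −0.01. The 4 that fell in both were ACTN4, TLN1, BCAR1 and ACTN1, and those that rose in WT6 were FERMT3, ILK and LIMS2, which like ACTN1 are named after their values were seen. ACTN4, an actin crosslinker, went from a normalized count of 25041 to 11998 in WT6 and from 23311 to 12894 in WT10, with slopes of −0.26 ± 0.03 and −0.19 ± 0.03 (SE, adjusted p = 3.7e-05 and 0.0018). TLN1, the talin that activates integrins, had slopes of −0.23 ± 0.04 and −0.12 ± 0.04 (adjusted p = 0.00042 and 0.049), and BCAR1, an adaptor of focal adhesions, −0.13 ± 0.03 and −0.10 ± 0.03 (adjusted p = 0.0025 and 0.037). Of 4 integrin inactivators, FLNA fell (−0.23) and SHARPIN rose (0.20) in WT6, and none passed in WT10 with limma, edgeR or DESeq2, where 0 had an unadjusted p under 0.05 with limma.

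Of 17 tested matrix ligands, 9 fell and 3 rose in WT6, and 4 fell and 3 rose in WT10, with median slopes of −0.13 and −0.01. FN1, the fibronectin that ITGA5 with ITGB1 binds, went from 21189 to 8889 in WT6 and from 2781 to 862 in WT10, with slopes of −0.31 ± 0.06 and −0.38 ± 0.06 (SE, adjusted p = 0.00090 and 0.0012). LTBP1, which holds latent TGF-beta in the matrix, had slopes of −0.34 ± 0.04 and −0.26 ± 0.06 (adjusted p = 3.4e-05 and 0.0053), and COL4A2, a basement membrane collagen, −0.31 ± 0.03 and −0.18 ± 0.03 (adjusted p = 8.9e-06 and 0.0018). TNC also fell in both (−0.20 and −0.19). LAMB3, a chain of the laminin that ITGA3 and ITGA6 receptors bind, rose instead, from 4023 to 7728 in WT6 and from 25777 to 63392 in WT10, with slopes of 0.19 ± 0.05 and 0.28 ± 0.05 (adjusted p = 0.0043 and 0.0018). COL1A1 rose in WT10 (0.16), and TGFB1 (0.23) and CYR61 (0.07) in WT6, and with TNC they are named after their values were seen.

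Of 10 membrane partners, 5 rose and 0 fell in WT6, and 2 rose and 1 fell in WT10, with median slopes of 0.08 and −0.01. SLC3A2, which binds beta tails and forms amino acid transporters, rose in both, from 14623 to 34096 in WT6 and from 15565 to 23999 in WT10, with slopes of 0.27 ± 0.04 and 0.14 ± 0.04 (SE, adjusted p = 0.00011 and 0.024). The others that rose in WT6 were CD151, which partners ITGA3 (0.11), BSG (0.09), CD9 (0.09) and SDC4 (0.08), and in WT10 CD47 rose (0.10) and PLAUR fell (−0.08), all named after their values were seen. With length and GC trends removed, 2 of the 10 partners rose and 3 fell in WT6 (limma), where 29.1% of all genes rose and 29.4% fell. In WT10 2 rose and 3 fell under that setting, where 16.3% of all genes rose and 18.7% fell. Of 9 tested trafficking genes, 3 rose in WT6 and 2 in WT10, with median slopes of 0.00 and 0.06. DAB2, an endocytic adaptor, had slopes of 0.24 ± 0.03 and 0.09 ± 0.03 (adjusted p = 3.4e-05 and 0.045), and RAB11A, a recycling GTPase, 0.13 ± 0.03 and 0.14 ± 0.03 (adjusted p = 0.0036 and 0.0081). NUMB also rose in WT6 (0.10). Of all 66 list genes tested, 0 passed in MUT3 with limma, edgeR or DESeq2, and 4 had an unadjusted p under 0.05 with limma. With limma 0 of all genes passed in MUT3, and RBM47 missed the threshold as well.

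The calls of the list genes depended on the same libraries. Without WT10 at 25 ng/ml 0 of the 66 passed in WT10 (limma), and 13 had an unadjusted p under 0.05. The slopes in WT10 were then −0.03 for ITGA1, −0.14 for FN1, 0.03 for LAMB3 and −0.06 for SLC3A2, while those of ACTN4 (−0.19), BCAR1 (−0.18), COL4A2 (−0.18) and RAB11A (0.18) were no smaller than with all libraries. Without WT6 at 5 and 25 ng/ml 1 of the 66 passed in WT6 (limma), LAMA3, a laminin chain named after its values were seen, and 21 had an unadjusted p under 0.05. With length and GC trends removed, ITGA1, ITGA10, ACTN4, TLN1, BCAR1, FN1, LTBP1, COL4A2, LAMB3, SLC3A2, DAB2 and RAB11A kept their direction and passed in both wild type clones. Of the 66, 40 passed in WT6 and 33 in WT10 under that setting, where 58.5% and 35.0% of all genes passed. The slope in WT6 moved to −0.19 for ITGA1, −0.13 for TLN1, −0.20 for FN1 and 0.21 for RAB11A, and that of TLN1 in WT10 to −0.07.

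The genomic extents of the 4 falling genes on hg19 were 52285170 to 52390609 on chromosome 5 (plus strand) for ITGA2, 48133332 to 48167845 on chromosome 17 (plus) for ITGA3, 173292082 to 173371187 on chromosome 2 (plus) for ITGA6 and 33176201 to 33294720 on chromosome 10 (minus) for ITGB1. GENCODE lists 3, 0, 3 and 2 genes that overlap them on the opposite strand, and ITGB4 overlaps GALK1. HTSeq counts by strand at its default settings, but whether the library kit kept the strand is not given in the sources used here, so reads of a gene and of an overlapping antisense gene may not be separated, except for ITGA3, which has no such neighbour.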

How the data were processed

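RNA-seq of 15 libraries was analysed, 1 for each of 3 clones and 5 doxycycline concentrations, grouped by the sample labels. The authors used STAR to align paired-end reads to hg19 and HTSeq 0.5.4, at default settings, which use the strand, to count reads on each gene, and divided by DESeq size factors. The deposited values are thus a normalized signal, the count of reads on a gene over the size factor of the library. The annotation, and whether the TruSeq kit kept the strand, are not given in the sources used here. Whole reads were recovered from 100% of the values (tolerance 0.01 of a read). Gene extents, lengths and GC content came from GENCODE on GRCh37, matched to 91.8% of genes by symbol or synonym, and promoters from RefSeq.

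limma 3.58.1 was fitted to log2(normalized count + 1) with precision weights (vooma) over genes with a mean of at least 10 in each clone, with 6 coefficients, a level at a dose of 0 and a slope against log2(dose + 1) in each clone, and 9 residual degrees of freedom. Fold changes on this scale understate those of low genes. Adjusted p-values are Benjamini-Hochberg over all genes tested, with a threshold of 0.05. edgeR 4.0.16 and DESeq2 1.42.0 on the recovered reads, and other settings, were alternatives. The fit was tested on simulated data. Intervals of ratios are exact binomial at 95% and cover counting error only, and 3 reads, the floor, were worth 1.19 to 4.09 normalized counts.

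The integrin genes and the lists of other genes were chosen with earlier results of these data known. All 10 integrin genes are reported. From each list, up to 3 rising and 3 falling genes called in the same direction in WT6 and WT10 were named, by the largest mean slope. Analyses ran in R 4.3.3 and Python 3.11.15. A gene of these lists enters their counts and is not reported here by name.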

Additional observations from a re-analysis of the deposited data

Results flagged for a closer look

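The slopes of wild type and mutant clones differed past the threshold for 4 genes, by a test of the difference itself (limma). WT10 minus MUT3 was −0.23 for ITGA2, −0.20 for ITGA3 and −0.19 for ITGA6. The mean of WT6 and WT10 minus MUT3 was −0.29 for ITGA2, −0.26 for ITGA3, −0.26 for ITGA6 and −0.35 for ITGB1. MUT3 libraries serve both comparisons, and each rests on 1 library for each clone and dose.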

How the results depend on the processing

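Counts of integrin genes past the threshold, of 9 tested, moved as follows, with the percentage of all genes past the threshold in parentheses. With the log2 RBM47 count in place of the dose, 0 passed in WT6 (0.00791%), 0 in WT10 (0.696%), and 0 in the comparisons of WT10 and of the mean wild type slope with MUT3 (0% in both). Without the 25 ng/ml libraries the counts were 7 in WT6 (37.1%), 0 in WT10 (0.134%), 0 for WT10 minus MUT3 (0%), 0 for the mean wild type slope minus MUT3 (0.00791%) and 1 for the level of WT10 against MUT3 (23.1%), and ITGA2 in WT10 turned to a slope of 0.0030. Without the WT6 libraries at 5 and 25 ng/ml, a setting chosen after seeing the data, they were 0 in WT6 (1.44%), 7 in WT10 (38.9%) and 5 for WT10 minus MUT3 (24.2%). With length and GC trends removed they were 7 in WT10 (35.0%) and 2 for WT6 minus WT10 (15.1%), and ITGAV in WT6 turned to 0.078. With dose as rank they were 1 in WT10 (16.6%), 1 for WT10 minus MUT3 (2.06%) and 1 for the level of WT10 against MUT3 (24.2%). With each clone fitted alone they were 7 in WT10 (28.4%) and 2 in MUT3 (1.39%). Without precision weights they were 0 for WT10 minus MUT3 (3.69%) and 1 for the level of WT10 against MUT3 (25.8%), and DESeq2 gave 2 for WT6 minus WT10 (19.2%). The cause was not tested, other than that fewer libraries enter where some are left out. Leaving out each library in turn gave 4 to 7 in WT6, with 7 (36.6%) without WT6 at 25 ng/ml. In WT10 the count ran from 0 (0.0475%) without WT10 at 25 ng/ml to 7 (32.8%) without WT6 at 5 ng/ml. In MUT3 it was 0 to 0. In the ranges that follow, the percentage is that of all genes where the count was highest. The count was 0 to 5 (17.9%) for WT10 minus MUT3 and 0 to 6 (27%) for the mean wild type slope minus MUT3. For WT6 minus WT10 it was 0 to 4 (29.4%). For levels it was 4 to 6 (60.6% and 67.1%, in 2 settings) for WT6 against WT10. It was 5 to 6 (69.4%) for WT6 against MUT3 and 1 to 6 (40.8%) for WT10 against MUT3. The slope of ITGA2 in WT10 ran from −0.28 to 0.0030, the latter without WT10 at 25 ng/ml. Of 2106 values of single genes compared, 76 that passed in neither setting changed sign. The depth limits ITGB8 and ITGB3. No paired analysis was possible by replicate number because the labels give none. With dose as a block shared by the clones, chosen after seeing the data, 4 passed for WT6 minus WT10 (19.4%), and the other comparisons between clones stayed within 1.5 times their counts.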
